A study of Mus musculus with 9 samples.

Results

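The microRNAs described here are the 5 guide strands of the miR-23, miR-27 and miR-24 clusters, namely mmu-miR-23a-3p, mmu-miR-23b-3p, mmu-miR-27a-3p, mmu-miR-27b-3p and mmu-miR-24-3p, written below without the mouse prefix. They were chosen by name from the table of known mouse microRNAs, in which they made up 5 of 1064 entries. Earlier results of these data were known when the choice was made. All 5 passed the filter on low counts, which left 414 microRNAs for testing. The study sequenced small RNA from small extracellular vesicles precipitated out of mouse serum with a polymer reagent, with 3 libraries in each of 3 groups. The first group was HFD-fed Sirt3 AKI, mice labelled as overexpressing Sirt3 in adipose tissue and fed a high fat diet. The second was HFD-fed WT, wild-type mice on the high fat diet, and the third was chow-fed WT, wild-type mice on ordinary chow. The series title gives the mice as male. No source used here gives the age, strain, time on the diet or the promoter behind the adipose overexpression. The library names of the HFD WT group carry a Sirt3 code while their titles and genotype labels say wild type, and the titles and genotype labels were followed. Small RNA counts hold no reading of the Sirt3 transcript, so the genotype was not checked in these data. A precipitate from whole serum holds vesicles from many cell types together with other precipitated material, so fewer vesicles of one origin and less of a microRNA per vesicle cannot be told apart.

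MicroRNAs are short RNAs loaded into Argonaute proteins, where bases 2 to 8, the seed, pair with sites in the 3′ ends of messenger RNAs and lower their output. The genome holds the miR-23, miR-27 and miR-24 hairpins as a pair of clusters, called a and b, each cut from a single transcript. In fat tissue miR-27 is best known as a brake on adipocyte formation that acts on the regulator Pparg. In human cell lines miR-23 is known to repress glutaminase and miR-24 to repress cell cycle genes such as E2F2 and MYC.

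The mature sequences are shown because they define which microRNAs can bind the same sites and how far the a and b forms can be told apart. RefSeq (GRCm38.p6) gave a mature sequence for 4 of the 5 microRNAs and for 916 of the 1064 known entries. Each is printed 5′ to 3′ with the seed in capitals.
miR-23a-3p: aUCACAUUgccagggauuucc
miR-27a-3p: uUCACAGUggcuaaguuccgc
miR-27b-3p: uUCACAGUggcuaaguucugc
miR-24-3p: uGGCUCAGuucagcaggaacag
The mature miR-27a-3p and miR-27b-3p matched at 20 of 21 bases, and the one substitution from the a form to the b form, counted from the 5′ end, was C19U, outside the seed. The seeds of miR-23a-3p and miR-27a-3p differed by U7G at the same count. The seed of miR-24-3p was unrelated to both. Among the tested microRNAs with a sequence, no further one carried the seed of miR-23a-3p, miR-27 or miR-24-3p.

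The a cluster lies at chr8:84208518-84208921 on the plus strand of GRCm38.p6 and packs Mir23a, Mir27a and Mir24-2 into 404 bases. The b cluster lies at chr13:63300484-63301275, also on the plus strand, and spreads Mir23b, Mir27b and Mir24-1 over 792 bases. The GENCODE annotation places the b cluster inside the protein-coding gene 2010111I01Rik on the same strand, with Mir23b in an intron and with Mir27b and Mir24-1 overlapping an annotated exon, and inside an intron of Fancc on the opposite strand. In the a cluster, only Mir24-2 overlapped another annotated gene on its strand, the long noncoding RNA Gm26532. Both Mir24 hairpins face a Mir3074 hairpin on the opposite strand. Since Mir24-1 and Mir24-2 give the same mature miR-24-3p, its counts sum the output of both clusters. The Mir27a hairpin at chr8:84208672-84208758 is shown as the example from which both arms were counted, with the 5p arm and then the 3p arm in capitals.
Mir27a hairpin: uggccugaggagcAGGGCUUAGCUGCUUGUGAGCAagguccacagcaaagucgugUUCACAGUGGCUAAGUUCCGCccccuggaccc
The Pparg site is shown because miR-27 is known for acting on it. The 3′ UTR of Pparg, 204 bases long in the annotated transcript, held the letters ACTGTGA, the reverse complement of the miR-27 seed, once. The 27 bases at chr6:115490271-115490297 on the plus strand in GRCm38, which hold the match, are given here with the match in capitals.
Pparg 3′ UTR site: cctaagaaatttACTGTGAaaaagcat
The same letters, searched on the transcript strand only, were present in the longest 3′ UTR of 3364 of 21025 genes, or 16.0%, so the match describes the sequence and no messenger RNA was measured here.

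The libraries differed in depth and in the share taken by miR-486. Total counts were 1729416 to 2973432 in HFD Sirt3 AKI libraries, 1953935 to 2162009 in HFD WT libraries and 225002 to 306974 in chow WT libraries. The erythroid miR-486 took 26.6 to 30.6% of counts in HFD Sirt3 AKI libraries, 26.3 to 27.3% in HFD WT libraries and 15.4 to 17.0% in chow WT libraries. This share sums the entries miR-486a-5p and miR-486b-5p. The 6 erythroid marker microRNAs, none at 0, summed to 31.1 to 39.1% of counts in HFD Sirt3 AKI libraries, 37.7 to 40.6% in HFD WT libraries and 29.3 to 31.1% in chow WT libraries. Of the miR-486 entries summed above, these markers include miR-486a-5p and leave out miR-486b-5p. The 3 hepatocyte markers, none at 0, summed to 0.868 to 3.48% in HFD Sirt3 AKI libraries, 0.577 to 0.650% in HFD WT libraries and 1.48 to 1.82% in chow WT libraries. Markers of 5 further cell classes were also measured, none of them at 0. The 4 leukocyte and platelet markers summed to 2.16 to 2.40% in HFD Sirt3 AKI libraries, 2.04 to 2.16% in HFD WT libraries and 2.24 to 2.41% in chow WT libraries. The 2 endothelial markers, the arms of miR-126a, summed to 2.46 to 3.05% in HFD Sirt3 AKI, 3.05 to 3.30% in HFD WT and 2.60 to 3.08% in chow WT. The 3 striated muscle markers summed to 0.722 to 1.27% in HFD Sirt3 AKI, 0.773 to 0.945% in HFD WT and 0.880 to 0.989% in chow WT. As a sum, the 7 epithelial markers were lowest in HFD WT. They held 0.670 to 1.72% in HFD Sirt3 AKI, 0.332 to 0.470% in HFD WT and 1.44 to 1.60% in chow WT. The sum of the 4 stromal markers was also lowest in HFD WT, at 0.632 to 1.68% in HFD Sirt3 AKI, 0.533 to 0.584% in HFD WT and 0.821 to 0.964% in chow WT. Singly these 4 did not move together. With TMM factors, log2 fold changes in HFD WT over chow WT were -2.51 for miR-145a-5p and 0.35 for miR-143-3p. They were 0.91 for miR-199a-3p and 1.23 for miR-214-3p. The part of all these cell markers in the results below was not tested. The biological coefficient of variation was 39.4% in HFD Sirt3 AKI, 13.6% in HFD WT and 10.2% in chow WT. Replicates 2 and 3 of HFD Sirt3 AKI carry another batch label than the other 7 libraries. Nothing in the labels says that replicates came from separate animals, so p-values measure the spread between these libraries. Levels are given in 2 ways, as CPM, counts scaled to 1e+06 per library after TMM factors (normalised CPM), which sets the bulk of microRNAs level between libraries, and as the deposited TPM, which divides each count by the library total.

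The 5 microRNAs kept one order of level in all 3 groups. miR-23a-3p led, followed by miR-24-3p, miR-27b-3p, miR-23b-3p and miR-27a-3p, and within each group no neighbours in this order overlapped in normalised CPM. In TPM, miR-27b-3p and miR-23b-3p overlapped in chow WT. These levels are counts per microRNA without a length correction, the mature forms shown being 21 or 22 bases long. By mean level miR-23a-3p ranked 27 of 414 in HFD Sirt3 AKI, 24 in HFD WT and 25 in chow WT, and miR-27a-3p ranked 95 in HFD Sirt3 AKI, 93 in HFD WT and 105 in chow WT. Of the counts of the 5 microRNAs, miR-23a-3p held 49.2 ± 0.922% in HFD Sirt3 AKI, 51.6 ± 1.35% in HFD WT and 51.0 ± 1.11% in chow WT (SD, n = 3 each). miR-24-3p held 25.5 ± 1.77% in HFD Sirt3 AKI, 22.9 ± 2.16% in HFD WT and 21.8 ± 0.927% in chow WT (SD, n = 3 each). The lowest count behind any value was 129 reads, for miR-27a-3p in chow WT replicate 3.

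miR-23a-3p had 5599, 4956 and 5280.4 normalised CPM in HFD Sirt3 AKI libraries, against 5839, 6916 and 5948 in HFD WT libraries and 5672, 5623 and 5160.0 in chow WT libraries. HFD WT was the highest group, with every library above every library of both other groups, and HFD Sirt3 AKI and chow WT overlapped. Its b form behaved otherwise. miR-23b-3p had 719.7, 898 and 739.8 normalised CPM in HFD Sirt3 AKI libraries, against 873, 1146 and 832 in HFD WT libraries and 1140.0, 1117 and 1223 in chow WT libraries. Chow WT was the highest group by mean. HFD WT replicate 2 lay within the chow WT range and HFD Sirt3 AKI replicate 2 within the HFD WT range, while HFD Sirt3 AKI and chow WT did not overlap.

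miR-27a-3p had 524, 518 and 484 normalised CPM in HFD Sirt3 AKI libraries, against 511, 560.3 and 519 in HFD WT libraries and 406, 459 and 431 in chow WT libraries. Both groups on the high fat diet lay above chow WT without overlap, and they overlapped each other. HFD WT did so for 30.9% of all tested microRNAs, and no such share is given here for HFD Sirt3 AKI. In TPM, HFD Sirt3 AKI and chow WT overlapped for miR-27a-3p, and HFD WT lay below chow WT. miR-27b-3p had 1415, 1516 and 1333 normalised CPM in HFD Sirt3 AKI libraries, against 1491, 1731 and 1577 in HFD WT libraries and 1257, 1378 and 1364 in chow WT libraries. Here HFD WT lay above chow WT, and HFD Sirt3 AKI overlapped both.

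miR-24-3p had 3016, 2416 and 2781 normalised CPM in HFD Sirt3 AKI libraries, against 2830.4, 2658 and 2755 in HFD WT libraries and 2392, 2499.9 and 2142 in chow WT libraries. HFD WT lay above chow WT without overlap, and HFD Sirt3 AKI, with its replicate 2 the lowest of the 3, overlapped both. The plot of levels by library sets these values beside the same libraries in TPM, where chow WT was the highest group by mean for all 5 microRNAs.

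**Figure D1:**
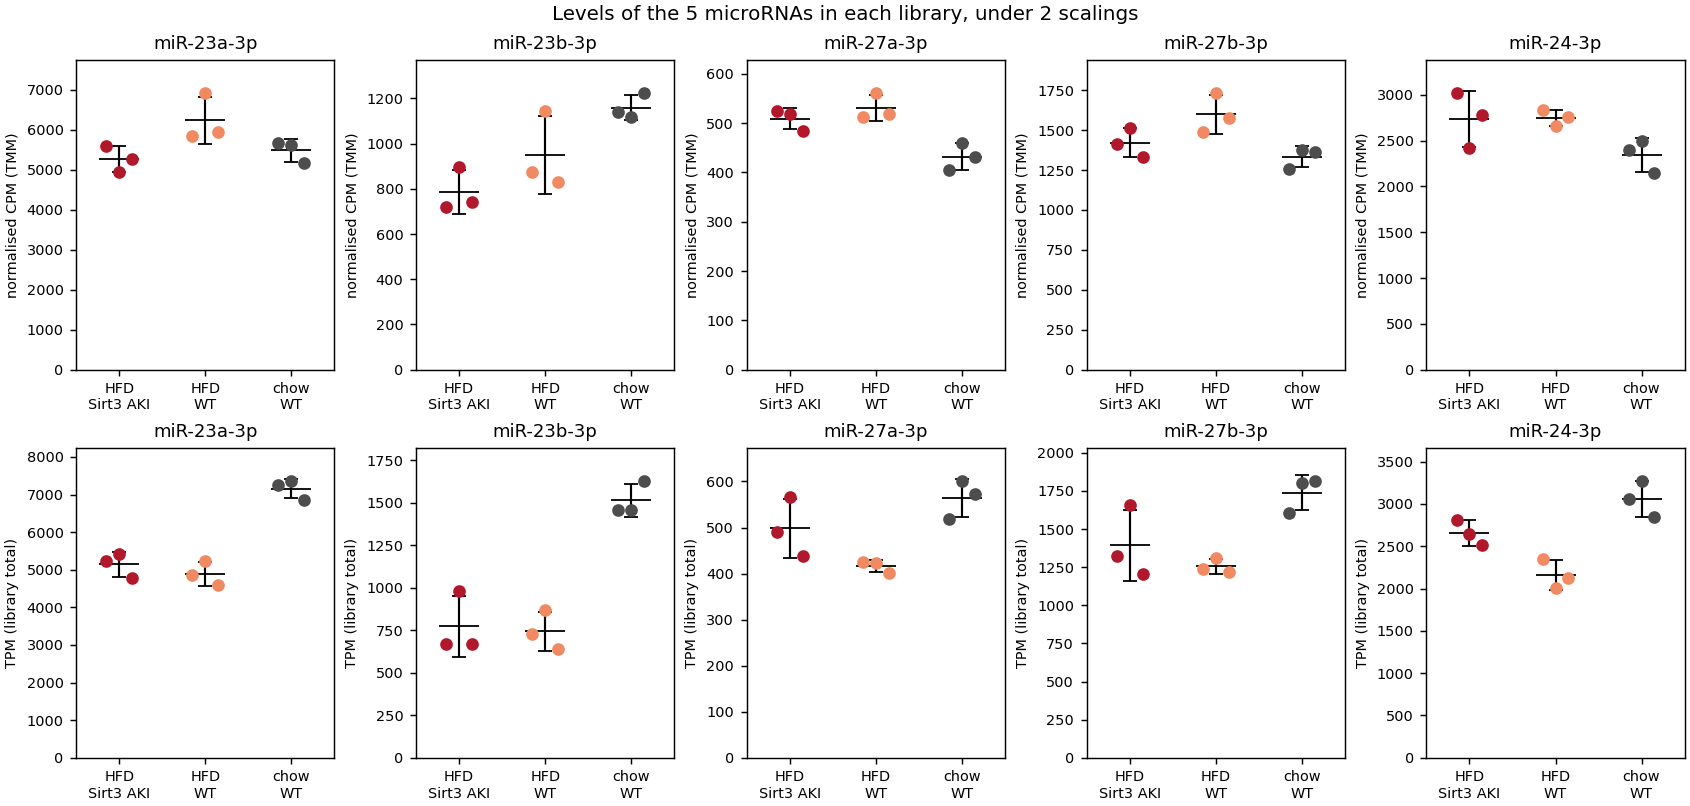
Level of each of the 5 microRNAs in every library as normalised CPM (upper panels) and as deposited TPM (lower panels), with the mean and SD of each group of 3 libraries as a line and bars. In normalised CPM, HFD WT lies above chow WT for all but miR-23b-3p, and in TPM every HFD WT library lies below every chow WT library for all 5.

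High fat diet in wild-type mice was compared first. None of the 5 microRNAs passed the test between HFD WT and chow WT, in a comparison where 37.7% of the 414 tested microRNAs were called. The fold changes were small and split by member. miR-27a-3p and miR-27b-3p had log2 fold changes of 0.30 and 0.26 and miR-23b-3p had -0.29, HFD WT over chow WT. This test was edgeR's quasi-likelihood test with Benjamini-Hochberg adjustment over the 414 microRNAs, called at an adjusted p below 0.05. For miR-27a-3p the SE was 0.12, the 95% interval 0.023 to 0.57 and the adjusted p 0.0844 by edgeR. For miR-27b-3p edgeR gave an SE of 0.12, an interval of 0.0078 to 0.52 and an adjusted p of 0.1001. miR-24-3p had a log2 fold change of 0.23 with an SE of 0.12 and an adjusted p of 0.161 by edgeR. miR-23a-3p had 0.18 with an SE of 0.11 and an adjusted p of 0.224 by edgeR. miR-23b-3p had an SE of 0.15, an interval of -0.63 to 0.051 and an adjusted p of 0.169 by edgeR. At an unadjusted p below 0.05, 2 of the 5 passed in edgeR, both forms of miR-27, against 188 of all 414. DESeq2 called 0 of the 5 and 143 of all 414.

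The direction of 4 of these 5 differences turned with the scaling. With library totals in place of TMM factors in edgeR, all 5 microRNAs fell in HFD WT, with log2 fold changes of -0.44 to -1.02 and adjusted p of 0.00103 to 0.0255. In that fit 39.4% of all tested microRNAs were called, 34.5% lower and 4.83% higher. The median over all 414 microRNAs was 0.15 with TMM and -0.57 with library totals, and the median over the 5 was 0.23 and -0.50. Against the median of all tested microRNAs, the 5 therefore stood 0.075 higher with TMM and 0.072 higher with library totals. Groups did not overlap in the higher direction for 4 of the 5 in normalised CPM, where 30.9% of all tested microRNAs did so, and in the lower direction for all 5 in TPM, where 46.4% did. miR-23b-3p was the lowest of the 5 under both scalings, at -0.29 and -1.02.

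These calls also changed with the libraries that entered the fit. Without HFD Sirt3 AKI replicate 2, miR-23a-3p, miR-27a-3p, miR-27b-3p and miR-24-3p rose in HFD WT by 0.30 to 0.42 on the log2 scale, with edgeR adjusted p of 0.00895 to 0.0236, in a fit that called 27.6% of all tested microRNAs higher. In the 7 libraries of the larger batch the same 4 rose by 0.24 to 0.36, with edgeR adjusted p of 0.0199 to 0.0416, where 24.9% of all tested were called higher. The fit on the 6 wild-type libraries alone, which also lacks HFD Sirt3 AKI replicate 2, called 0 of the 5 higher. It called miR-23b-3p, which fell by 0.37 with an edgeR adjusted p of 0.0193, where 53.4% of all tested microRNAs were called. Leaving out HFD WT replicate 2 also called it, at -0.44 with an edgeR adjusted p of 0.04996, where 14.6% were called lower.

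**Figure D2:**
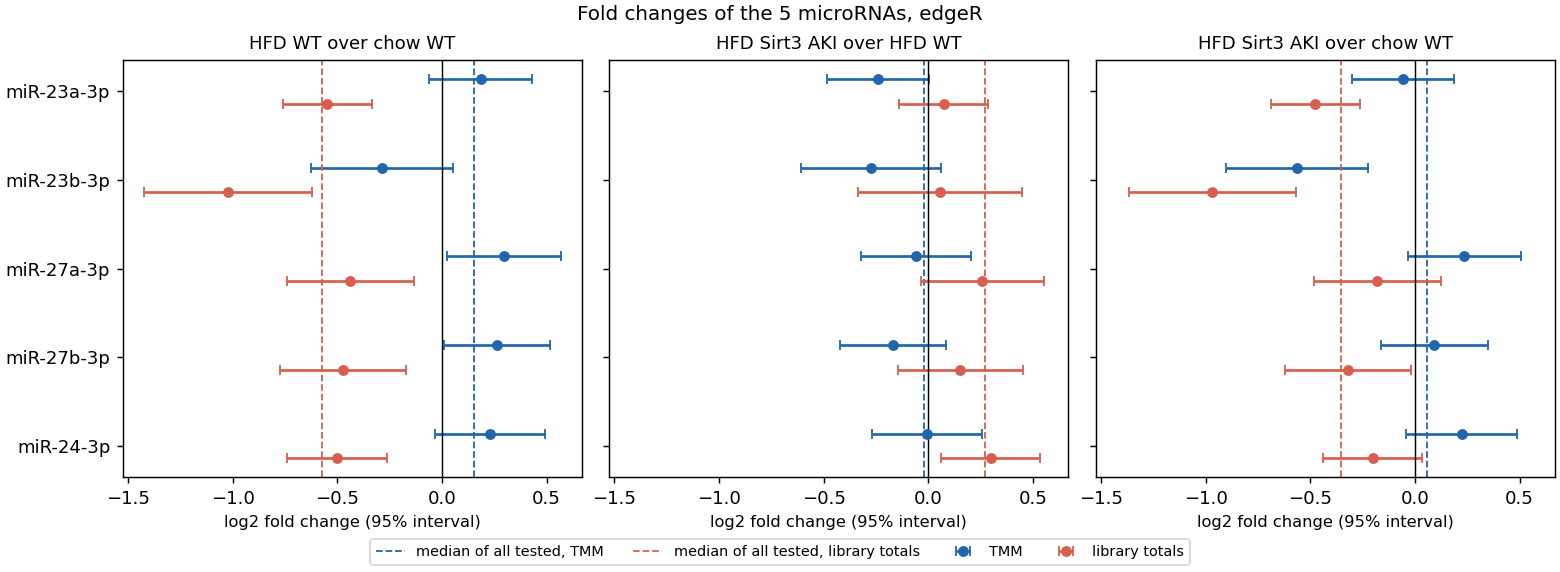
Log2 fold change of each of the 5 microRNAs with its 95% interval from edgeR in 3 comparisons, with TMM factors (blue) and with library totals (red), and the median of all tested microRNAs under each scaling as a dashed line. In HFD WT over chow WT the values move from about the blue median of 0.15 to about the red median of -0.57, and miR-23b-3p lies left of the median under both scalings.

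Adipose Sirt3 overexpression on the high fat diet was compared next. None of the 5 microRNAs passed the test between HFD Sirt3 AKI and HFD WT, where 8.94% of the 414 tested were called. All 5 had values below 0 with TMM, led by miR-23b-3p at -0.27 and miR-23a-3p at -0.24. For miR-23a-3p edgeR gave an SE of 0.11, a 95% interval of -0.48 to 0.0034 and an adjusted p of 0.190. For miR-23b-3p the SE was 0.15, the interval -0.61 to 0.061 and the adjusted p 0.278 by edgeR. Without HFD WT replicate 2, the highest library of that group for this microRNA, its value was -0.11. miR-27b-3p had -0.17 with an SE of 0.11 and an adjusted p of 0.365 by edgeR. miR-27a-3p had -0.059 with an interval of -0.32 to 0.21, and miR-24-3p had -0.0051 with an interval of -0.27 to 0.26, from edgeR. No member reached an unadjusted p below 0.05 in edgeR, where 109 of all 414 did, the lowest being 0.0527 for miR-23a-3p. DESeq2 called 0 of the 5 and 53 of all 414. None of the other fits run called any of the 5 in this comparison, including that with library totals, which called 11.4% of all tested microRNAs.

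The signs again followed the scaling. With library totals all 5 values lay above 0, between 0.056 and 0.30, and all tested microRNAs had a median of 0.27, against -0.021 with TMM. miR-23a-3p was the only one of the 5 whose groups did not overlap in normalised CPM, in the lower direction, which 17.4% of all tested microRNAs did. In TPM its groups overlapped, and the groups of miR-27a-3p and miR-24-3p did not, in the higher direction, which 24.9% of all tested did. HFD Sirt3 AKI replicates 2 and 3 form a batch of their own that holds no library of another group. Replicate 1 is the only HFD Sirt3 AKI library in the larger batch, and in that batch the edgeR values were between -0.26 and 0.27 for the 5, with that lone library assumed to vary like those of the other groups.

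HFD Sirt3 AKI and chow WT differ in both diet and genotype, and this comparison shares libraries with the other 2. It held the single call made among the 5. miR-23b-3p fell in HFD Sirt3 AKI, with a log2 fold change of -0.56, an SE of 0.15, a 95% interval of -0.90 to -0.22 and an adjusted p of 0.0131 by edgeR, in a comparison where 39.9% of tested microRNAs were called and 19.6% were called lower. One call in 5 is near that background. Its groups did not overlap in normalised CPM, in the lower direction, which 26.3% of all tested microRNAs did. The sign held with library totals, at -0.97 with an edgeR adjusted p of 0.00163, where miR-23a-3p was also called lower, at -0.48, and 31.2% of all tested microRNAs were. The call was lost without chow WT replicate 3, where the edgeR adjusted p was 0.0552, without HFD Sirt3 AKI replicate 3, where it was 0.0658, and without the filter on low counts, where it was 0.308. Without that filter miR-24-3p was called higher, at 0.47 with an edgeR adjusted p of 0.0405, where 9.50% of all tested were called higher. Without HFD Sirt3 AKI replicate 2, 3 of the 5 were called, miR-23b-3p lower and miR-27a-3p and miR-24-3p higher, by 0.38 and 0.46 with edgeR adjusted p of 0.0325 and 0.00463, in a fit that called 41.6% of all tested microRNAs. With all 9 libraries, the other 4 had log2 fold changes of -0.055 for miR-23a-3p, 0.24 for miR-27a-3p, 0.093 for miR-27b-3p and 0.22 for miR-24-3p, with edgeR adjusted p of 0.153 to 0.730.

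Ratios within a library do not depend on how libraries are scaled, and they set the members against each other. How often ratios of other pairs of microRNAs separate the groups was not counted, so no background stands beside any ratio here. The ratio of miR-23a-3p to miR-23b-3p was 7.78, 5.52 and 7.14 in HFD Sirt3 AKI libraries, against 6.69, 6.03 and 7.15 in HFD WT libraries and 4.98, 5.04 and 4.22 in chow WT libraries. Both groups on the high fat diet lay above chow WT without overlap, and they overlapped each other. The means were 6.81 ± 1.16 in HFD Sirt3 AKI, 6.63 ± 0.561 in HFD WT and 4.74 ± 0.455 in chow WT (SD, n = 3 each). The log2 ratio was 0.48 higher in HFD WT than in chow WT, with a two-sided exact permutation p of 0.1, the smallest that 3 against 3 allows, and 0.25 after adjustment over 5 ratios. Between HFD Sirt3 AKI and HFD WT it differed by 0.029 with an exact permutation p of 1.

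The corresponding ratio for miR-27 was nearly level. miR-27a-3p over miR-27b-3p averaged 0.359 ± 0.0148 in HFD Sirt3 AKI, 0.332 ± 0.00984 in HFD WT and 0.324 ± 0.00868 in chow WT (SD, n = 3 each). The log2 difference was 0.032 for HFD WT minus chow WT, with an exact permutation p of 0.4, and 0.11 for HFD Sirt3 AKI minus HFD WT, with an exact permutation p of 0.2. The b cluster holds the hairpins of miR-23b and miR-27b side by side. miR-23b-3p over miR-27b-3p, a ratio added after the values were seen, was 0.509, 0.592 and 0.555 in HFD Sirt3 AKI libraries, against 0.585, 0.662 and 0.528 in HFD WT libraries and 0.907, 0.811 and 0.897 in chow WT libraries. All 6 libraries on the high fat diet lay below all 3 chow WT libraries. The log2 difference between HFD WT and chow WT was -0.56, with an exact permutation p of 0.1. miR-23a-3p over miR-27a-3p, added in the same way, averaged 10.4 ± 0.724 in HFD Sirt3 AKI, 11.7 ± 0.521 in HFD WT and 12.7 ± 1.09 in chow WT (SD, n = 3 each). HFD WT and chow WT overlapped. HFD Sirt3 AKI lay below HFD WT without overlap, with a log2 difference of -0.18 and a two-sided exact permutation p of 0.1, or 0.2 after adjustment over the 4 ratios added.

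**Figure D3:**
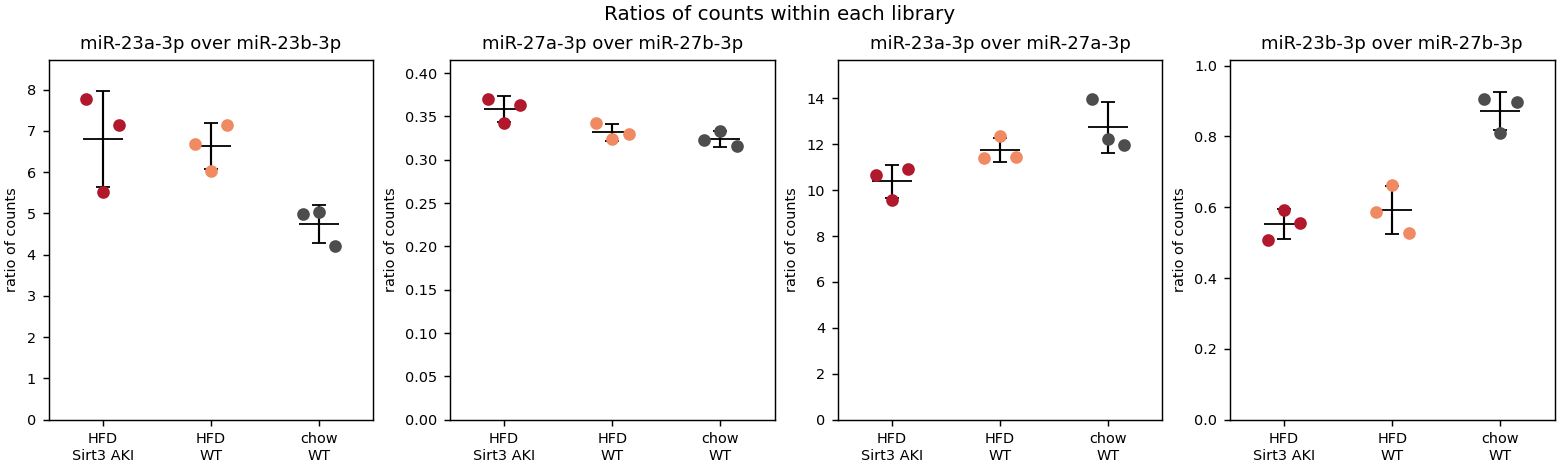
Ratio of the counts of 2 microRNAs within each library for the a and b forms of miR-23 and of miR-27 (left panels) and for neighbours in the a cluster and in the b cluster (right panels), with the mean and SD of each group of 3 libraries. miR-23a-3p over miR-23b-3p averages 6.81 in HFD Sirt3 AKI, 6.63 in HFD WT and 4.74 in chow WT, while miR-27a-3p over miR-27b-3p stays between 0.316 and 0.370 in all 9 libraries.

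No source used here says how reads that fit both the a and the b form were assigned, so the split between the forms is less certain than their sum. Summed over both forms, miR-23 had a log2 fold change of 0.10 in HFD WT over chow WT (SE 0.11) with an edgeR adjusted p of 0.517. Summed miR-27 had 0.26 (SE 0.11) with an edgeR adjusted p of 0.0921. Adipose Sirt3 overexpression gave -0.23 for summed miR-23 and -0.13 for summed miR-27 over HFD WT, with edgeR adjusted p of 0.188 and 0.496. The ratio of summed miR-23 to summed miR-27 averaged 3.15 ± 0.237 in HFD Sirt3 AKI, 3.37 ± 0.143 in HFD WT and 3.77 ± 0.285 in chow WT (SD, n = 3 each), and HFD WT lay below chow WT without overlap, with an exact permutation p of 0.1. The ratio of summed miR-27 to miR-24-3p overlapped in both comparisons, with exact permutation p of 0.5 for HFD Sirt3 AKI against HFD WT and 0.7 for HFD WT against chow WT.

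As a share of all counts the 5 microRNAs together held 1.05 ± 0.0825% in HFD Sirt3 AKI, 0.947 ± 0.0453% in HFD WT and 1.40 ± 0.0398% in chow WT (SD, n = 3 each). The difference of HFD WT minus chow WT was -0.46 percentage points with an exact permutation p of 0.1, and no HFD WT library reached the chow WT range. HFD Sirt3 AKI minus HFD WT was 0.0996 percentage points with an exact permutation p of 0.2. With miR-486 taken out of the totals, the shares were 1.45% in HFD Sirt3 AKI, 1.29% in HFD WT and 1.67% in chow WT. HFD Sirt3 AKI minus HFD WT was then 0.159 percentage points with an exact permutation p of 0.1, and HFD WT minus chow WT was -0.38 with an exact permutation p of 0.1. The part of miR-486 in the lower share was not tested beyond this value.

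The passenger strands, the 5p arms that are mostly discarded when a hairpin is loaded, were rare. Of 6 listed 5p arms, 5 had an entry and 2 passed the filter, miR-23a-5p and miR-27a-5p. Neither was called in any of the 3 comparisons by edgeR with TMM. In HFD WT over chow WT, miR-27a-5p was called lower with library totals, at -0.82 with an edgeR adjusted p of 0.0175. limma on log2(TPM + 1) called both lower there, at -0.82 for miR-27a-5p and -1.46 for miR-23a-5p with limma adjusted p of 0.00753 and 0.0336, where 36.2% of all tested were called lower. miR-27a-5p averaged 49.2 ± 3.73 normalised CPM in HFD Sirt3 AKI, 52.8 ± 12.1 in HFD WT and 55.9 ± 2.07 in chow WT (SD, n = 3 each), so in normalised CPM its group means differed by less than the SD in HFD WT. Against its own guide strand, a ratio added after the values were seen, miR-27a-5p over miR-27a-3p was 0.0997, 0.0969 and 0.0931 in HFD Sirt3 AKI libraries, against 0.0849, 0.119 and 0.0934 in HFD WT libraries and 0.132, 0.125 and 0.132 in chow WT libraries. Chow WT was the highest group without overlap, and the log2 difference of HFD WT minus chow WT was -0.43 with an exact permutation p of 0.1. The chow WT values rest on 17 to 22 reads of the 5p arm per library. miR-23a-5p had 2 to 18 reads per library. miR-3074-5p, from the strand opposite miR-24, averaged 33.2 normalised CPM in HFD Sirt3 AKI, 41.8 in HFD WT and 39.8 in chow WT, and whether counting used the strand was not stated.

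A microRNA that can be read beside miR-27 is miR-128-3p, which was picked out after its values were seen. Its sequence is shown, with its own seed in capitals, because it starts with 8 bases that miR-27a-3p also carries.
miR-128-3p: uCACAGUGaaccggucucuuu
The shared run UCACAGUG starts at base 1 in miR-128-3p and at base 2 in miR-27a-3p, so their seeds are offset by 1 base. In adipose tissue and liver miR-128 is known for acting on lipid and insulin signalling genes. miR-128-3p had 4245, 4192 and 4162 normalised CPM in HFD Sirt3 AKI libraries, against 3719, 3521 and 3581 in HFD WT libraries and 2102, 2336 and 2112 in chow WT libraries. In normalised CPM the 3 groups did not overlap and were highest in HFD Sirt3 AKI and lowest in chow WT. HFD WT lay above chow WT in this way for 30.9% of all tested microRNAs. No such share is given here for HFD Sirt3 AKI above HFD WT in normalised CPM. In TPM, HFD WT and chow WT overlapped for miR-128-3p. There HFD Sirt3 AKI lay above HFD WT without overlap, which 24.9% of all tested microRNAs did. miR-128-3p rose in HFD WT over chow WT by 0.72 on the log2 scale (SE 0.10), with an edgeR adjusted p of 2.09e-04. With library totals the value was -0.0051 with an edgeR adjusted p of 0.979. HFD Sirt3 AKI over HFD WT was 0.22 (SE 0.10) with an edgeR adjusted p of 0.188, and 0.53 with an adjusted p of 0.0166 with library totals.

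Within each library, miR-128-3p over the sum of both miR-27 forms was 2.19, 2.06 and 2.29 in HFD Sirt3 AKI libraries, against 1.86, 1.54 and 1.71 in HFD WT libraries and 1.26, 1.27 and 1.18 in chow WT libraries. The 3 groups did not overlap in this ratio, which needs no scaling between libraries. The log2 difference was 0.46 for HFD WT minus chow WT and 0.36 for HFD Sirt3 AKI minus HFD WT, each with a two-sided exact permutation p of 0.1. Adjusted over the 4 ratios added after the values were seen, these were 0.133 and 0.2. Neither the test nor the adjustment covers the pick of miR-128-3p after its values were seen. The ratio is therefore given as a description, and no conclusion is drawn from these p-values.

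**Figure D4:**
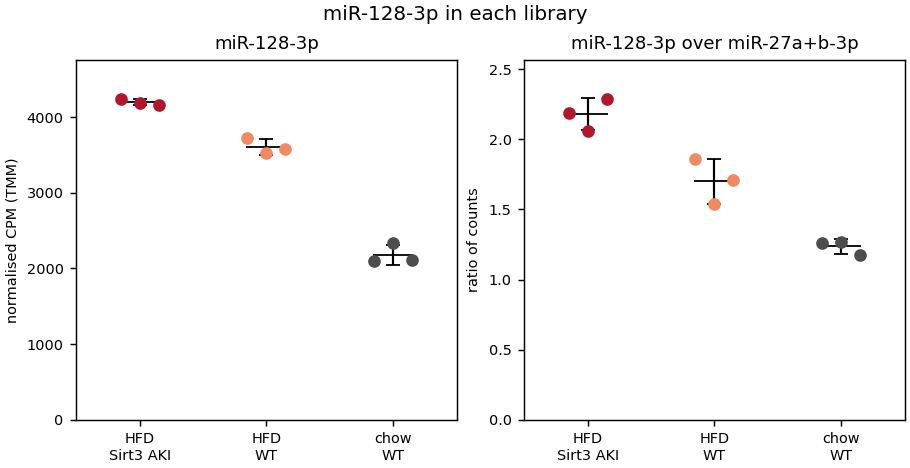
Normalised CPM of miR-128-3p (left) and the ratio of its counts to the summed counts of miR-27a-3p and miR-27b-3p (right) in each library, with the mean and SD of each group of 3 libraries. The ratio averages 2.18 in HFD Sirt3 AKI, 1.70 in HFD WT and 1.24 in chow WT, with no overlap between groups.

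Other microRNAs known to act in fat cell formation were followed as 2 lists, since miR-27 belongs to this process. Of 10 listed as reported to restrain it, 9 were tested, and in HFD WT over chow WT 0 rose and 3 fell, where 16.2% of all tested microRNAs were called lower. Those were miR-145a-5p with a log2 fold change of -2.51, miR-155-5p with -1.71 and miR-221-3p with -0.96. Of 15 listed as reported to promote it, all tested, 6 rose and 3 fell, where 21.5% of all tested were called higher. miR-148a-3p, miR-30d-5p and miR-21a-5p had log2 fold changes of 1.08, 0.86 and 0.79. miR-20a-5p, miR-103-3p and miR-107-3p had 0.63, 0.63 and 0.59, and miR-103 and miR-107 are known to lower insulin sensitivity. miR-378a-5p, miR-204-5p and miR-378a-3p fell, with -1.96, -0.84 and -0.43. The largest edgeR adjusted p among these 12 calls was 0.0460, for miR-378a-3p. The call of miR-20a-5p was lost without chow WT replicate 1 or HFD WT replicate 3, with edgeR adjusted p of 0.0683 and 0.0511. That of miR-204-5p was lost without any 1 of 5 libraries (edgeR adjusted p of 0.0566 to 0.135) and that of miR-378a-3p without any 1 of 7 (0.0585 to 0.170). With each library left out in turn, the log2 fold change stayed between 0.56 and 0.76 for miR-20a-5p, -1.002 and -0.69 for miR-204-5p and -0.54 and -0.27 for miR-378a-3p. With library totals, 0 rose and 5 fell in the list of restrainers and 0 rose and 8 fell in the list of promoters, where 34.5% of all tested were called lower. The list medians were -0.14 and 0.17 with TMM, beside 0.15 over all tested microRNAs, and -0.87 and -0.56 with library totals, beside -0.57.

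In HFD Sirt3 AKI over HFD WT, 1 of the 9 tested restrainers rose, where 1.45% of all tested microRNAs were called higher, and none fell. This was miR-222-3p, with a log2 fold change of 0.52, an SE of 0.14 and an edgeR adjusted p of 0.0497. Of the 15 promoters 3 fell and none rose, where 7.49% of all tested were called lower. These were miR-20a-5p with -1.29, miR-17-5p with -1.05 and miR-107-3p with -0.57, with edgeR adjusted p of 0.00318, 0.00473 and 0.0335. With the batch label as a term, a fit that called 0.242% of all tested microRNAs, none of these 4 was called, with edgeR adjusted p of 0.0652 to 0.452. Their log2 fold changes there were 0.62 for miR-222-3p, -0.97 for miR-20a-5p, -0.96 for miR-17-5p and -0.36 for miR-107-3p. The call of miR-222-3p was lost without any 1 of 8 libraries (edgeR adjusted p of 0.0611 to 0.176) and that of miR-107-3p without any 1 of 7 (0.0595 to 0.176). With each library left out in turn, their log2 fold changes stayed between 0.48 and 0.62 and between -0.68 and -0.43. With library totals, 2 restrainers rose and none fell, and 1 promoter rose and 2 fell, where 8.70% of all tested were called higher and 2.66% lower. The list medians were 0.15 for restrainers and -0.17 for promoters, beside -0.021 over all tested microRNAs. The abundant miR-143-3p, miR-26a-5p, miR-26b-5p and miR-30a-5p, with mean levels of 3213 to 9410.2 normalised CPM, were not called in either comparison with TMM. With library totals, miR-26a-5p, miR-26b-5p and miR-30a-5p were called lower in HFD WT over chow WT, at -0.98, -0.94 and -0.64 with edgeR adjusted p of 5.28e-05, 7.28e-04 and 0.0167. HFD WT libraries enter both comparisons, so the 2 sets of counts are not independent.

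Across the 9 libraries, the level of each microRNA on the log2 scale of normalised CPM was set against 352 other known microRNAs that were tested, as a description of libraries that share group and depth. miR-27a-3p ran closest to miR-21a-5p, miR-7a-1-3p and miR-486a-3p, with Pearson r of 0.96, 0.95 and 0.91. miR-27b-3p ran closest to miR-15b-3p, miR-21a-5p and miR-126a-3p, with r of 0.86, 0.85 and 0.85. miR-21a-5p was thus among the closest for both forms of miR-27. miR-23a-3p ran closest to miR-107-3p, miR-451a and miR-130a-3p, with r of 0.92, 0.91 and 0.90. miR-23b-3p ran closest to a different set, miR-133a-5p, miR-125b-2-3p and miR-340-5p, with r of 0.96, 0.90 and 0.89. miR-24-3p ran closest to miR-744-5p, miR-29a-3p and miR-191-3p, with r of 0.94, 0.86 and 0.86. Between members, r over the 9 libraries was 0.86 for the 2 forms of miR-27 and 0.21 for the 2 forms of miR-23 in normalised CPM, and 0.95 and 0.96 in TPM.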

How the data were processed

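Small RNA from serum vesicles was sequenced in 9 libraries, 3 per group. The authors deposited counts per mature microRNA and TPM values. The submitters' processing notes name Bowtie 0.12.2 and the mm8 build; settings, adapter trimming and the rule for multiply matching reads were not stated there. The deposited TPM equalled each count divided by its library total per 1e+06, to within 5.00e-05, and holds no length term. Known and predicted microRNAs (1169 in all) were pooled, and edgeR 4.0.16 (R 4.3.3) kept 414 of them, 406 known, by filterByExpr with a minimum count of 10; the rest held 0.0543% of counts. All 9 libraries entered a single quasi-likelihood fit with TMM factors, with Benjamini-Hochberg adjustment over all 414 and calls at an adjusted p below 0.05. SE is the log2 fold change divided by the root of F, and intervals are 95%. The fit was tested on simulated data. Ratios (on the log2 scale with 0.5 added to each count) and shares were tested by exact permutation, two-sided, over 3 against 3 libraries in scipy 1.17.1, which cannot go below 0.1.

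Alternatives were DESeq2 size factors, library totals, no filter, DESeq2 1.42.0, limma 3.58.1 on log2(TPM + 1), the 2 groups alone, a replicate block, the batch label, the larger batch alone, summed a and b forms and each library left out. The microRNAs named were the 5 members, their 5p arms, microRNAs sharing a seed, the 3 closest in pattern to each member, and listed adipogenesis microRNAs that were called in HFD WT over chow WT or HFD Sirt3 AKI over HFD WT or averaged at least 1000 normalised CPM; miR-128-3p and miR-3074-5p fall outside this rule. Members and lists were chosen with earlier results of these data known. Sequences and coordinates come from RefSeq and GENCODE annotations of GRCm38, not from mm8.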

Additional observations from a re-analysis of the deposited data

How the results depend on the processing

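The 3 libraries per group and the lower depth of chow WT limit every comparison, and 2 of the 3 HFD Sirt3 AKI libraries cannot be told apart from their batch. Over all tested microRNAs, calls ranged from 116 to 188 for HFD WT over chow WT, from 1 to 102 for HFD Sirt3 AKI over HFD WT and from 124 to 178 for HFD Sirt3 AKI over chow WT. Replicate numbers did not pair libraries (deviations of same-numbered libraries correlated at -0.080 to 0.19, and the own number was best in 6 of 18 cases). With a replicate block the members called were 0, 0 and 1, as without it, beside 154, 31 and 161 of all 414.

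Members called in HFD WT over chow WT numbered 5 with library totals, 5 with limma on log2(TPM + 1) and 1 with the 2 groups alone. Over all tested microRNAs, those fits called 163 of 414, 171 of 414 and 186 of 348. With a library left out, 0 to 4 members were called, beside 116 of 439 to 188 of 428 over all tested. In HFD Sirt3 AKI over chow WT the members called numbered 2 with library totals, 2 with limma and 0 with a and b forms summed. Those fits called 169 of 414, 178 of 414 and 164 of 412 over all tested. With a library left out, 0 to 3 members were called, beside 131 of 433 to 178 of 428 over all tested. In the larger batch, which holds 1 HFD Sirt3 AKI library, the log2 fold changes of the members ran from -0.49 to 0.56. With the forms summed, fewer members were tested and miR-23b-3p was no longer tested by itself. Summed miR-23 had -0.13 in HFD Sirt3 AKI over chow WT, with an edgeR adjusted p of 0.357. For the other changes the cause was not tested.

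In HFD WT over chow WT, library totals and limma gave -0.55 and -0.55 for miR-23a-3p, -0.44 and -0.43 for miR-27a-3p, -0.47 and -0.47 for miR-27b-3p, -0.50 and -0.50 for miR-24-3p, -0.0051 and -0.0057 for miR-128-3p, -0.10 and -0.10 for miR-103-3p, -0.15 and -0.15 for miR-107-3p and -0.10 and -0.095 for miR-20a-5p, each turned in sign. miR-27a-5p was 0.12 without the filter and -0.27 to 0.067 with a library left out.

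In HFD Sirt3 AKI over HFD WT, library totals and limma gave 0.072 and 0.072 for miR-23a-3p, 0.056 and 0.043 for miR-23b-3p, 0.26 and 0.25 for miR-27a-3p, 0.15 and 0.14 for miR-27b-3p, 0.30 and 0.30 for miR-24-3p and 0.22 and 0.22 for miR-27a-5p. DESeq2 size factors in edgeR and DESeq2 gave 0.045 and 0.045 for miR-27a-3p, 0.098 and 0.099 for miR-24-3p and 0.011 and 0.013 for miR-27a-5p. The 2 groups alone and the larger batch gave 0.073 and 0.12 for miR-27a-3p, 0.12 and 0.27 for miR-24-3p and 0.038 and 0.13 for miR-27a-5p. miR-24-3p was 0.028 without the filter, 0.13 with the batch term, 0.0080 with forms summed and -0.069 to 0.11 with a library left out, and miR-27a-5p -0.23 to 0.11.

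In HFD Sirt3 AKI over chow WT, library totals and limma gave -0.18 and -0.18 for miR-27a-3p, -0.32 and -0.33 for miR-27b-3p and -0.20 and -0.20 for miR-24-3p. miR-23a-3p was 0.19 without the filter, 0.030 with the batch term, 0.23 in the larger batch and -0.085 to 0.15 with a library left out.

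The share of counts without miR-486 differed by -0.38 percentage points between HFD WT and chow WT. The log2 ratio of miR-23a-3p to miR-23b-3p differed by 0.24 between HFD Sirt3 AKI and HFD WT in the larger batch. Of all single-microRNA values recomputed, 511 kept direction and side of the threshold, 58 lost a call, 22 gained one and 62 turned in sign. Values that turned in sign were counted only there, though some also gained a call, as miR-23a-3p did in HFD WT over chow WT with library totals.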
